A study of Mus musculus with 3 samples.

Results

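The matrix metalloproteinases (MMPs), their tissue inhibitors (TIMPs) and the ADAMTS and ADAMTSL proteins were taken as all genes whose symbol begins with Mmp, Timp, Adamts or Adamtsl followed by a digit. The rule found 50 of the 32285 genes in the deposited tables. They were 22 MMPs, 4 TIMPs, 19 ADAMTS proteinases and 5 ADAMTSL genes. With at least 20 unique molecular identifiers (UMIs, the tags that count captured RNA molecules) over all barcodes, 35 members are described by name: 11 MMPs, 3 TIMPs, 18 ADAMTS and 3 ADAMTSL genes. Together the 50 members gave 40459 UMIs, or 0.161% of all UMIs.

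The tissue was the palatal shelf of the mouse embryo, the outgrowth of the upper jaw that later joins its partner in the midline, and it was profiled cell by cell with droplet RNA sequencing. All embryos were wild-type C57BL/6J, with no transgene, deletion or treatment in any group. There was 1 library for each of 3 stages named by embryonic day, E13.5, E14.5 and, as the last, E15.5. Each library pooled 3 embryos, and the cells were dissociated with TrypLE and fixed in methanol. With 1 library per stage there was no test between stages or cell classes, and all intervals below are 95% intervals that cover counting error only.

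MMPs are zinc proteinases that cut collagens, gelatins and other proteins of the extracellular matrix and the cell surface, and TIMPs bind and block them. ADAMTS enzymes have narrower substrates: some trim the N-propeptides of fibrillar procollagens, some cut the proteoglycans versican and aggrecan, and others act on fibrillin microfibrils. ADAMTSL proteins carry the ancillary domains of ADAMTS enzymes without the catalytic domain. In the palate, versican cleavage by Adamts9 and Adamts20 is known to be needed for closure of the shelves.

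The libraries held 11472663, 5293977 and 8313677 UMIs at the earliest, middle and latest stage, and 3583, 1750 and 2584 cells were kept. Cells were assigned to a class when they carried RNA of at least 3 markers of that class and of more than of any other class, with 2 markers enough for osteogenic cells among lineage cells, and no member was a marker. The classes are named from RNA markers alone. Mesenchymal, osteogenic and chondrogenic cells were also summed as the mesenchymal lineage, which held 439, 1139 and 1653 cells and 1259701, 3260158 and 5004679 UMIs. The E13.5 library stood apart: 56.9% of its cells were neuronal, against 7.2% and 7.24% in the later libraries. Pairs of libraries shared between 1 and 3 cell barcodes. Levels are given as CPM, the counts of a gene scaled to the total of the class. Values in groups of 3 are in the order of the stages, and a late-to-early ratio or fold divides the level at E15.5 by that at E13.5. Levels of different genes are not ranked against each other, because priming and gene length were not corrected for.

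The members' totals ran on across the limit of 20 UMIs, with Mmp13 at 19 and Adamts8 at 33. Of the 15 members with under 20 UMIs, 11 were MMPs, and 5 of these (Mmp1b, Mmp10, Mmp12, Mmp21 and Mmp27) had no UMI in any library. A cluster of 9 MMP genes lies on chromosome 9 between 7272514 and 7699585 (GRCm38), from Mmp13, a collagenase of growing bone, to Mmp7. Mmp8, the collagenase stored by neutrophils, with 35 UMIs, passed the 20 UMIs as the only gene of this cluster. Mmp13 had 19 UMIs, Mmp3 had 17, Mmp20 and Mmp7 had 1 each, and the remaining 4 had 0. Of the 16 Mmp3 UMIs in kept cells, 7 were in 1 osteogenic cell, and of the 18 Mmp13 UMIs in kept cells, 7 were in 3 osteogenic cells.

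The promoters of the members under 20 UMIs and of those above differed in their letters. RefSeq promoter sequences (GRCm38.p6) were given for 35 members, of which 21 were among those with at least 20 UMIs and 14 among the others. Members are counted by gene, with a match in any listed promoter of the gene. The shares over all are per promoter, so the member counts and these shares are not the same measure. In the 250 bases before the start, the AP-1 motif TGANTCA was found in 0 of the 21 and in 7 of the 14 (Mmp1b, Mmp3, Mmp7, Mmp10, Mmp12, Mmp13 and Mmp20, all in the chromosome 9 cluster), against 6.75% of all 32851 promoters. The GC box GGGCGG was found in 17 of the 21 and in 3 of the 14, against 32.7% of all promoters. These 3 (Adamtsl2, Adamtsl4 and Mmp25) all lie outside the chromosome 9 cluster. The TATA motif TATAAA was found in 1 of the 21 and in 8 of the 14, against 12.4%. All of these 8 but Adamtsl2 and Mmp21 lie in the cluster, so the contrast follows the cluster as well as the UMI limit. Both strands were searched, and 3 further motifs were read: the E-box CANNTG was in 13 of 21 and 12 of 14 (66.2% of all), the Runx motif TGTGGT in 2 of 21 and 4 of 14 (14.0%), and the Ets motif CCGGAAGT in 0 of 21 and 0 of 14 (2.88%). None of these letter strings contains another of them.

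The last 120 bases before the start, printed 5′ to 3′ on the strand of the gene, show the difference for Mmp13 and Mmp3 on one side, and on the other side for Mmp14 and Timp1, an enzyme and an inhibitor counted in the mesenchymal lineage, and for Adamts18 and Adamts9, which were highest in epithelial and endothelial cells. Capitals mark the AP-1 motif, the GC box and the TATA motif on either strand. The windows overlap no annotated exon. A match describes letters only.
Mmp13 (chr9:7272394-7272513, + strand): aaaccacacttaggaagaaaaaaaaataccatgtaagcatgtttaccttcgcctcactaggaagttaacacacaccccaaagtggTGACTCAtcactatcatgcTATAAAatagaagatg
Mmp3 (chr9:7445702-7445821, + strand): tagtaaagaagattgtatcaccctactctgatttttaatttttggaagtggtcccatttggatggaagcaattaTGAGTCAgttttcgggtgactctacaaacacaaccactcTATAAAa
Mmp14 (chr14:54431478-54431597, + strand): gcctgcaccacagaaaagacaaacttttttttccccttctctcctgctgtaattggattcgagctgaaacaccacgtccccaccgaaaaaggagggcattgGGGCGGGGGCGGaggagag
Timp1 (chrX:20870046-20870165, + strand): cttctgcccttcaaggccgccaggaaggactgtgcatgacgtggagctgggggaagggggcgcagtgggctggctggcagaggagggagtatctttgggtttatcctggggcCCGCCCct
Adamts18 (chr8:113848840-113848959, - strand): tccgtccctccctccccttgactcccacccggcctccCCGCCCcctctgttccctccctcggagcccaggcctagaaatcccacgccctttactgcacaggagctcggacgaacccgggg
Adamts9 (chr6:92943535-92943654, - strand): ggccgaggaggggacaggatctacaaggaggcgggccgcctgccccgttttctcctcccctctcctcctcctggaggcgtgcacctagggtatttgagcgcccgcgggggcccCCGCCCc
In these windows Mmp13 and Mmp3 each held 1 AP-1 match and 1 TATA match and 0 GC boxes. Mmp14 held 2 GC boxes, and Timp1, Adamts18 and Adamts9 held 1 each, with no match to AP-1 or TATA.

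**Figure D1:**
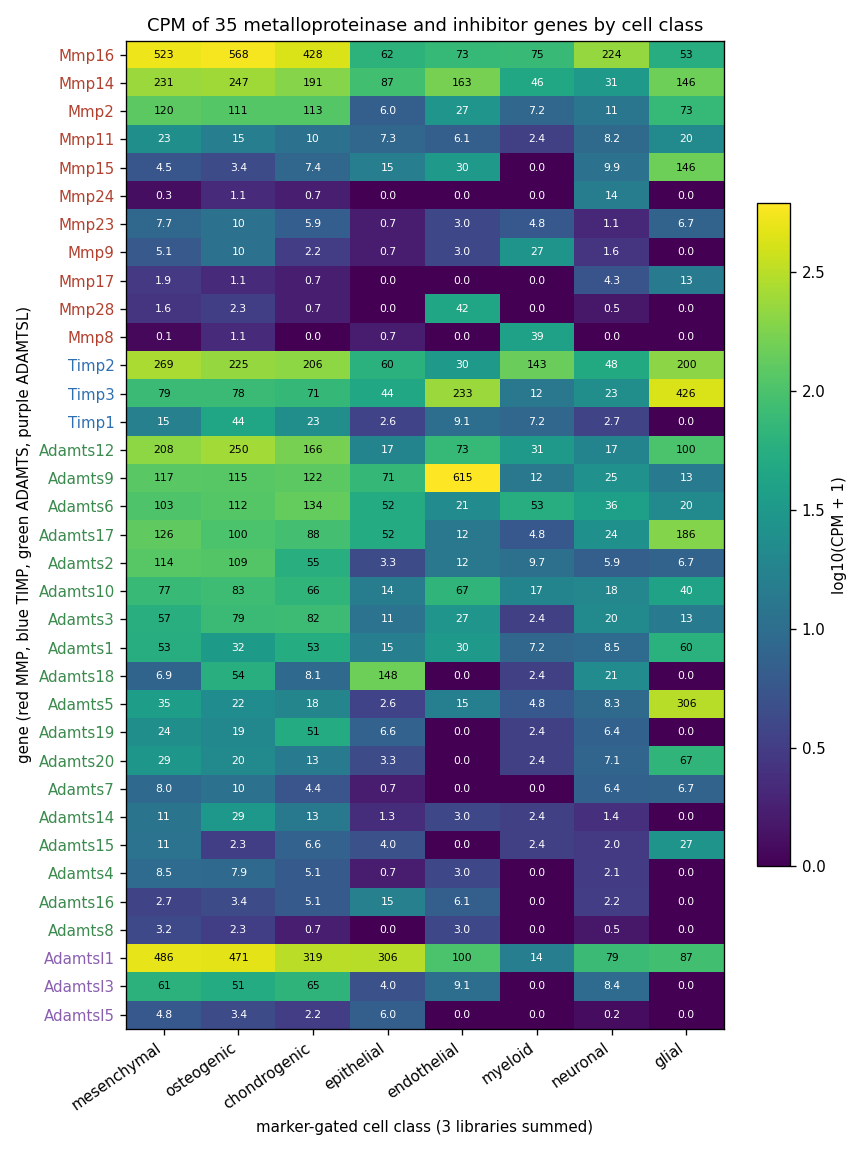
Level of each of the 35 named genes (rows, grouped by family) in 8 marker-gated cell classes (columns), with the 3 libraries summed. Colour is log10(CPM + 1) and the printed number is CPM; Adamts9 reaches 615 CPM in endothelial cells, and Adamts5 306 CPM in glial cells.

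In the mesenchymal lineage the members as a group were higher at E14.5 and E15.5 than at E13.5. The 22 MMP genes summed to 473, 969 and 970.3 CPM, the TIMPs to 233, 335 and 395 CPM, the ADAMTS genes to 664, 989 and 1064 CPM, and the ADAMTSL genes to 210.4, 509 and 617 CPM. Such sums are weighted by the genes with the most counts, and gene length was not corrected for. These genes were Mmp16 for the MMPs, Timp2 for the TIMPs and Adamtsl1 for the ADAMTSL genes, with their levels given below. Of the 31 members with at least 20 UMIs in the lineage, 15 had a late-to-early ratio of 2 or more, with 1 CPM added to both levels, and 1 was lower by 2-fold or more. Among all 13656 genes tested in the same way, 14.1% were that much higher and 5.28% that much lower. The median log2 ratio was 0.93 over the members and 0.04 over all genes. With the 2 members that had 0 UMIs at E13.5 (Adamts8 and Adamtsl5) set to their fold over 3 counts there, the members' median was 0.69 and 14 were 2-fold higher. In 12 of the 15 the counting interval of the fold also lay above 1, against 10.5% of all genes; the 3 others were Adamts4, Adamts8 and Adamts16. Of the 15, Mmp9, Mmp23, Adamts8, Adamts16 and Adamtsl5 had at most 1 UMI at E13.5. They thus reached the 20 UMIs through the later libraries, where they were high. With a minimum of 100 UMIs, 8 of 22 members were 2-fold higher, against 10.2% of all genes.

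Most of the difference lay between E13.5 and E14.5. At E14.5, 13 of the 31 had passed 2-fold upward from the E13.5 level (12.4% of all genes) and 0 were 2-fold lower (3.39% of all genes), with a median log2 ratio of 0.70 against 0.06 over all genes. From E14.5 to E15.5, 1 member was 2-fold higher (1.77% of all genes) and 1 was 2-fold lower (2.23% of all genes), with a median of 0.12 against -0.02. The comparisons share libraries, so they are not independent of each other.

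The makeup of the lineage differed between these libraries as well. The summed level of the 14 mesenchymal markers in the lineage was 2995, 6636 and 7988 CPM, that of the chondrogenic markers was 1785, 1409 and 462 CPM, and that of neuronal markers was 514, 477 and 359.7 CPM. Erythroid marker RNA in the lineage was at 4696, 221 and 24.4 CPM, high at E13.5 and low after it. Myeloid markers were at 5.56, 70.5 and 66.9 CPM and osteogenic markers at 68.3, 541 and 339 CPM, both low at E13.5. The mesenchymal gate alone, without osteogenic and chondrogenic cells, gave 11 members with a late-to-early ratio past 2 (14.3% of all genes) and 2 lower (5.57%). With the mix of 4 lineage clusters present at every stage held fixed, 13 were higher (16.0% of all genes) and 0 lower (8.23%). Of the lineage cells, 84.5%, 37.8% and 31.3% were in these clusters. The part that the other differences in makeup have in these values was not tested.

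**Figure D2:**
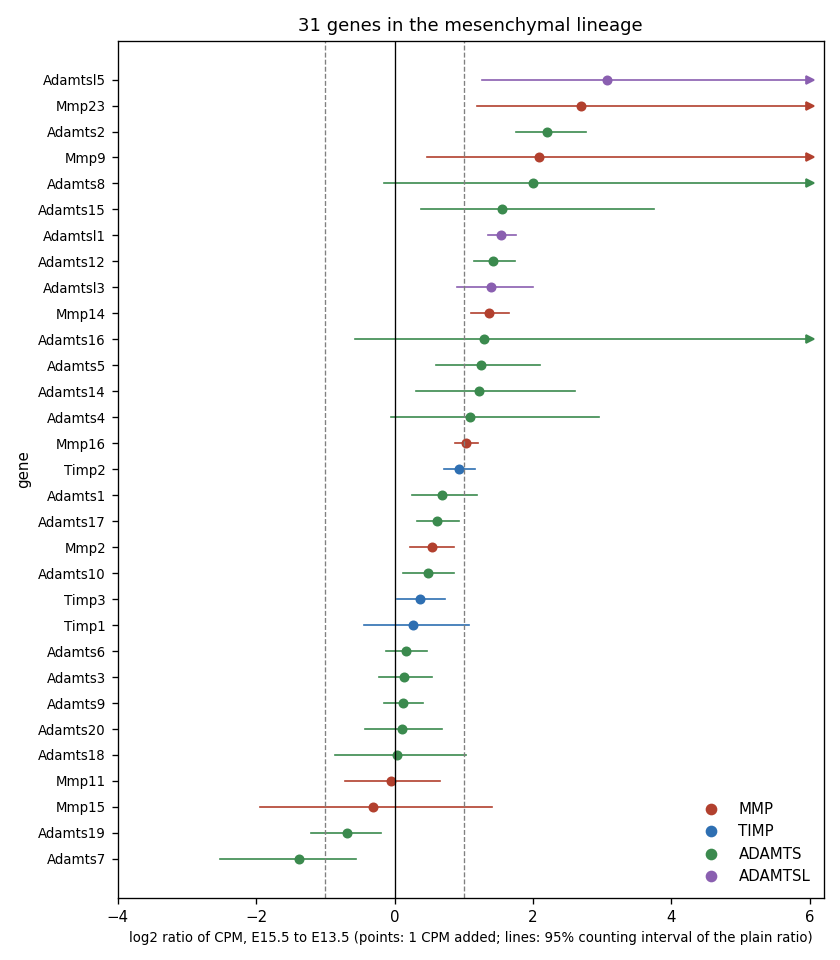
Late-to-early log2 ratio of CPM in the mesenchymal lineage for the 31 genes with at least 20 UMIs there (points, with 1 CPM added), coloured by family, with the 95% counting interval of the plain ratio (lines, arrows where it runs past the axis or has no upper end). Dashed lines mark a 2-fold difference; 15 points lie beyond the upper one and 1, Adamts7, beyond the lower one.

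Among the membrane-anchored MMPs, Mmp14, a collagenase that also activates the Mmp2 proenzyme, was at 98.4, 232 and 256 CPM in the lineage (124, 756 and 1279 UMIs). Both later levels were above the first, and the late-to-early fold was 2.60 (2.16 to 3.15). The level at E15.5 was 1.10-fold (1.01 to 1.21) that at E14.5. After thinning each cell to 1500 UMIs, 10.1% of the lineage cells had a Mmp14 UMI in the earliest library (6.98 to 13.9), 28.3% in the next (25.05 to 31.7) and 30.3% in the last (27.6 to 33.15). Before thinning the shares were 22.3%, 38.0% and 43.0%. In myeloid cells, 3.23% of the thinned cells had a Mmp14 UMI (3 of 93), with a median depth of 1753 UMIs against 2108 in the lineage. Thinning left out 1081 of the 3231 lineage cells.

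Mmp16, a relative of Mmp14 with the same kind of membrane anchor, was at 269, 548 and 552 CPM, a late-to-early fold of 2.05 (1.83 to 2.30). The share of thinned lineage cells with a Mmp16 UMI was 28.0%, 44.1% and 43.8%, and it was 2.15% in myeloid cells. Both the level and the share were set apart at E13.5 and did not differ beyond counting error between E14.5 and E15.5. Mmp15, another membrane-anchored enzyme, had only 5, 26 and 15 UMIs in the lineage, and its fold of 0.755 had an interval from 0.261 to 2.66.

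The secreted gelatinase Mmp2 was at 78.6, 139.9 and 114 CPM in the lineage, highest at E14.5. Its late-to-early fold was 1.45 (1.17 to 1.82), under the 2-fold line. Mmp9, the second gelatinase, had 1, 15 and 33 UMIs in the lineage, and the ratio of 8.31 had a wide interval of 1.39 to 338. Mmp23, a small MMP with its own type of membrane anchor, had 1, 19 and 53 UMIs (0.794, 5.83 and 10.6 CPM), and the ratio of 13.3 had an interval of 2.29 to 537. It was at its lowest at E13.5, where 1 UMI was counted. Mmp11, a stromelysin of stromal cells, was at 19.1, 24.8 and 18.4 CPM, a fold of 0.965 (0.61 to 1.58) that did not differ from 1 beyond counting error.

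Of the inhibitors, Timp2, which also takes part in the activation of Mmp2 by Mmp14, was at 152, 239 and 292 CPM in the lineage. Its level was higher at each later stage. Its late-to-early fold of 1.92 was under the 2-fold line, with an interval of 1.65 to 2.24 that held 2. Timp3, which is held in the matrix and also blocks several ADAMTS enzymes, was at 65.1, 73.0 and 84.3 CPM, a fold of 1.30 (1.02 to 1.66). Timp1, a soluble inhibitor, was at 15.1, 21.5 and 18.4 CPM, and its fold of 1.22 had an interval of 0.738 to 2.12. With the settings reported here, none of the 3 inhibitors passed 2-fold in the lineage, and the intervals of Timp1 and Timp2 held 2. The sum of the MMPs had a late-to-early ratio of 2.051 and that of the TIMPs one of 1.698, and these sums are weighted by Mmp16 and Timp2.

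**Figure D3:**
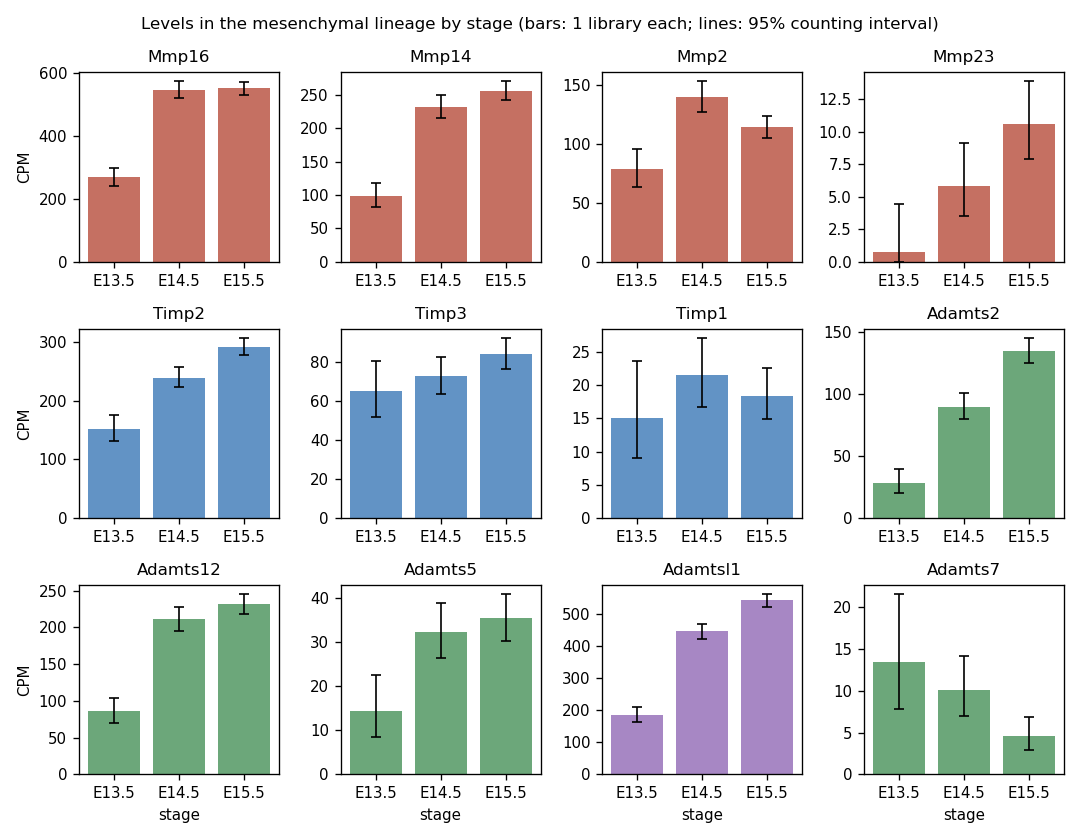
CPM of 12 genes in the mesenchymal lineage by stage (bars, 1 library each, axes from 0 and scaled to each gene) with 95% counting intervals. Mmp14, Mmp16, Adamts2, Adamts12 and Adamtsl1 are lowest at E13.5 with intervals apart from the later stages, and Adamts7 is highest at E13.5.

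The procollagen N-propeptidases were Adamts2, Adamts14 and Adamts3. Adamts2 was at 28.6, 89.6 and 135 CPM in the lineage, higher at each later stage, with a late-to-early fold of 4.71 (3.37 to 6.79). A thinned lineage cell had an Adamts2 UMI in 3.46%, 11.8% and 18.9% of cases, and a thinned myeloid cell in 2.15%. Adamts14 was at 6.35, 10.1 and 16.2 CPM, a fold of 2.55 (1.23 to 6.103). Its log2 ratio of 1.23 came under 1 in 5 alternatives, among them the mesenchymal gate alone (0.95) and the fixed cluster mix (0.60). Adamts3, which also processes the lymphatic growth factor Vegfc, was at 57.2, 63.5 and 63.1 CPM, a fold of 1.11 (0.853 to 1.45). Thus 2 of the 3 were past 2-fold, against 14.1% of all genes, and Adamts3 did not differ between stages beyond counting error.

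The enzymes that cut versican and aggrecan gave a mixed picture. Adamts5, an aggrecanase, was at 14.3, 32.2 and 35.4 CPM in the lineage, a fold of 2.47 (1.52 to 4.27). Adamts15 had 4, 28 and 56 UMIs and a fold of 3.52 (1.30 to 13.4), and Adamts4 had 5, 23 and 48 UMIs and a fold of 2.42 (0.967 to 7.78). These 3 had few UMIs at E13.5. Adamts1 was at 35.7, 46.6 and 58.1 CPM, a fold of 1.63 (1.19 to 2.28). Adamts9 was at 105, 128 and 114 CPM and Adamts20 at 27.8, 19.6 and 29.97 CPM, with folds of 1.09 (0.901 to 1.33) and 1.08 (0.742 to 1.61). The lineage levels of this pair, the versicanases tied to palate closure, did not differ between the first and last stage beyond counting error.

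Adamts12 and Adamts7 share a mucin-like domain, and both are known to bind cartilage oligomeric matrix protein. They went in opposite directions in the lineage. Adamts12 was at 85.7, 211 and 232 CPM, a fold of 2.71 (2.22 to 3.33). Adamts7 was at 13.495, 10.1 and 4.60 CPM (17, 33 and 23 UMIs), a fold of 0.340 (0.174 to 0.679), and it was the only member more than 2-fold lower. Its log2 ratio of -1.37 was -0.95 with 5 CPM added, -0.81 over all cells of the libraries and -0.38 with the cluster mix held fixed, which ends the call. Adamts7 overlaps Tbc1d2b on the opposite strand, and whether their reads were told apart depends on strand counting, which is not stated. Other named members, among them Timp1, Timp3, Mmp11 and Adamts2, also overlap a gene on the opposite strand. Timp2 overlaps Cep295nl on the same strand, so some of its counts may belong to either gene. Adamts19 was also lower at E15.5, at 37.3, 29.8 and 22.8 CPM, with a fold of 0.610 (0.431 to 0.877).

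The fibrillin-related enzymes Adamts6, Adamts10 and Adamts17 stayed under 2-fold. Adamts10 was at 58.0, 76.1 and 81.1 CPM in the lineage and Adamts17 at 82.6, 118 and 127 CPM, with folds of 1.40 (1.09 to 1.82) and 1.54 (1.25 to 1.92). Adamts6 was at 93.7, 118 and 105 CPM, a fold of 1.12 (0.919 to 1.38). Among the rarer genes, Adamts16 had 1, 12 and 17 UMIs and Adamts8 had 0, 11 and 15, so that the E15.5 level of Adamts8 was 2.997 CPM against the 2.38 CPM that a count of 0 allows at E13.5. The exact interval of its fold began at 0.903 and held 1.

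All 3 named ADAMTSL genes were past 2-fold, against 14.1% of all genes, and Adamtsl2 and Adamtsl4, with 2 and 6 UMIs in the lineage, were not tested. Adamtsl1 was at 185, 444 and 541 CPM in the lineage, a fold of 2.92 (2.56 to 3.36), and the share of thinned lineage cells with a UMI was 18.6%, 39.4% and 41.3%. In thinned myeloid cells that share was 2.15%. The annotated span of Adamtsl1 is 914 kb and overlaps Sh3gl2 on the same strand, so some of its counts may belong to either gene, and counts from introns cannot be set apart here. Adamtsl3 was at 25.4, 62.9 and 68.3 CPM, a fold of 2.69 (1.87 to 4.00). Adamtsl5 had 0, 4 and 37 UMIs. Its E15.5 level was 3.10-fold that of the 3 counts that a count of 0 allows at E13.5, while the exact interval of its fold began at 2.40. It was also the 1 member past 2-fold between E14.5 and E15.5.

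Within the lineage, the osteogenic gate (168 cells, of which 7 were at E13.5) and the chondrogenic gate (300 cells) were set against the mesenchymal gate with the libraries summed. Of 31 members, 3 were at least 2-fold higher in osteogenic cells with an interval above 1 (Adamts18, Adamts14 and Timp1, against 2.71% of all genes) and 1 was lower (Adamts15, against 2.14%). In chondrogenic cells 1 was higher (Adamts19, against 3.81%) and 3 were lower (Mmp11, Adamts2 and Adamts20, against 2.97%). The lower calls rest on the sum of libraries that differ in their share of the gates: 116 of the 300 chondrogenic cells and 316 of the 2763 mesenchymal cells were from E13.5. Adamts2 was at 16.1, 53.5 and 105 CPM in chondrogenic cells and at 35.3, 100.04 and 138 CPM in mesenchymal cells, and its fold of 0.763 at E15.5 had an interval of 0.52 to 1.08. Adamts20 had 6 chondrogenic UMIs at each stage, with folds of 0.471, 0.38 and 0.61, and Mmp11 had 7, 7 and 0, with folds of 0.938, 0.337 and 0. The osteogenic level of Adamts15 rests on 2 UMIs.

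Adamts18 was at 76.4 CPM in osteogenic and 6.96 CPM in mesenchymal cells at E14.5 (22 and 16 UMIs), and at 44.8 and 5.56 CPM at E15.5 (25 and 23 UMIs). The osteogenic level was the higher one at both stages, by 11.0-fold (5.51 to 22.4) and 8.06-fold (4.39 to 14.9). At E13.5 the osteogenic gate held 1 UMI of Adamts18. Timp1 was at 66.0 and 14.4 CPM in these gates at E14.5, and one stage later at 35.9 and 16.9 CPM, with folds of 4.60 (2.47 to 8.32) and 2.12 (1.22 to 3.52). Adamts14 was at 41.3 and 12.3 CPM at E15.5, a fold of 3.34 (1.95 to 5.57), but at 10.4 and 10.0 CPM at E14.5 with 3 osteogenic UMIs, and without cells that carried 3 markers of another class its summed log2 ratio was 0.53 in place of 1.36.

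Adamts19 was at 42.9, 57.9 and 44.7 CPM in chondrogenic cells and at 35.3, 23.5 and 21.3 CPM in mesenchymal cells. The chondrogenic level was higher at E14.5 by 2.47-fold (1.59 to 3.79) and at E15.5 by 2.10-fold (1.10 to 3.72), and at E13.5 the interval of 0.619 to 2.30 held 1. The markers of the osteogenic gate summed to 1173, 4944 and 2113 CPM at the 3 stages, so its cells were not alike across libraries. At E15.5 pituitary marker RNA was at 787 CPM in this gate and 7.26 CPM in the mesenchymal gate, and 438 of its 439 UMIs lay in 2 cells. Without these 2 cells the E15.5 folds were 8.77 (4.78 to 16.2) for Adamts18, 3.32 (1.90 to 5.62) for Adamts14 and 2.30 (1.33 to 3.83) for Timp1.

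**Figure D4:**
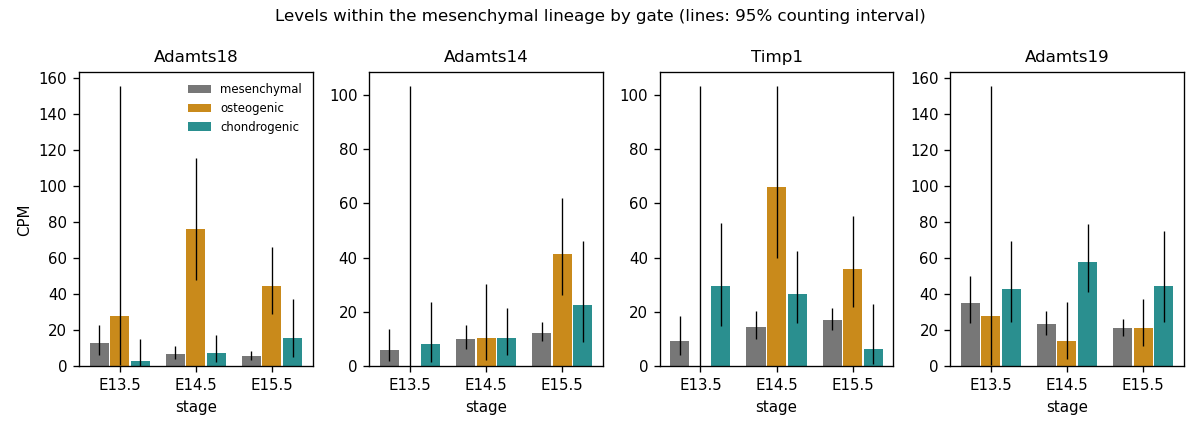
CPM of Adamts18, Adamts14, Timp1 and Adamts19 in the mesenchymal, osteogenic and chondrogenic gates at each stage (bars) with 95% counting intervals. Adamts18 is at 76.4 and 44.8 CPM in the osteogenic gate in the later libraries, above the other gates; the osteogenic bars at E13.5 rest on 7 cells.

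Across cell classes, 9 of 34 members were at least 2-fold higher in the mesenchymal lineage than in each of 5 other classes, against 3.39% of all genes. These were Mmp16, Adamts2, Adamts3, Adamts4, Adamts6, Adamts12, Adamts14, Adamts19 and Adamtsl3. The glial class is so shallow that 0 UMIs there allow up to 19.97 CPM, and with each class at 0 UMIs set to 3 counts, 6 of the 9 stayed past 2-fold (1.77% of all genes) and Adamts4, Adamts14 and Adamts19 did not. With classes from clusters, the ratio with 1 CPM added came under 2 for Mmp16 (1.763), Adamts3 (1.946) and Adamts6 (1.871). With a minimum of 1000 genes per cell it was 1.989 for Adamts3 and 1.985 for Adamts6. Without cells with 3 markers of another class it was 1.976 for Adamts12 and 1.897 for Adamts4. Of the 6, Adamts2 and Adamtsl3 stayed past 2-fold in these settings. Most neuronal cells were from E13.5 and most lineage cells from later, so the libraries were also read singly against the epithelial and neuronal classes, which held at least 50 cells in each. Adamts2, Adamts3, Adamts12 and Adamtsl3 were past 2-fold over these classes in each library, and the other 5 were not. Adamts12 was highest in glial cells at E13.5, a class that this comparison leaves out. Mmp16 was past 2-fold in 0 of the 3, at 269 against 213, 548 against 313 and 552 against 286 CPM in lineage and neuronal cells. Adamts2 was at 105 CPM in the lineage and 12.1 CPM in endothelial cells, the next class, and Adamtsl3 at 60.8 against 9.08 CPM. The lineage had the highest level of 18 members, against 15.3% of all genes, and for 11 of the 18 it did so in each library. The others were Adamts7, Adamts12, Adamtsl1, Mmp11, Mmp14, Mmp23 and Timp2, and for Mmp23 it did so in 0 of the 3 libraries. Among the 18 were Mmp2, Mmp14 and Timp2, which were less than 2-fold above the next class, and at E13.5 Mmp14 was highest in glial and Timp2 in myeloid cells. Timp1 was at 19.0 CPM against 9.08 CPM in endothelial cells, a fold of 2.09 (0.705 to 10.2) and a ratio of 1.98 with 1 CPM added, and its 0 glial UMIs allow up to 19.97 CPM, more than the lineage level. Mmp14 was at 227 CPM in the lineage and 163 CPM in endothelial cells.

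Adamts9 and Mmp28, an MMP with little known substrate range, were the 2 members highest in the endothelium by 2-fold (2.95% of all genes). Adamts9 was at 615 CPM in endothelial cells and 118 CPM in the lineage, a fold of 5.22 (4.47 to 6.06). In the 3 libraries the endothelial cells gave 1, 58 and 144 UMIs, or 76.3, 448 and 767 CPM, with only 8 endothelial cells at E13.5. The intervals of E14.5 (340.1 to 579) and E15.5 (647 to 903) did not overlap. After thinning, 29 of 73 endothelial cells (39.7%, 28.45 to 51.9) had an Adamts9 UMI, against 2.15% of myeloid cells. Mmp28 had 0, 3 and 11 UMIs in endothelial cells, and its summed level of 42.4 CPM was 26.9-fold (12.0 to 59.8) that of the lineage.

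The glial class held 51 cells, and 25 of them carried at least 3 markers of another class. Mesenchymal markers summed to 1070.0, 4374 and 3448 CPM in these cells at the 3 stages. It had 5 members 2-fold above each other class (3.82% of all genes): Adamts5, Adamts15, Adamts20, Mmp15 and Mmp17. Adamts5 gave 12, 18 and 16 UMIs in glial cells (428, 358 and 222 CPM), and its summed 306 CPM were 9.72-fold (6.97 to 13.3) the level in the lineage. Mmp15 gave 3, 9 and 10 UMIs and was at 146 CPM, 4.84-fold (2.20 to 11.4) above endothelial cells. Both were highest in glial cells in each of the 3 libraries. Without the cells that carried 3 markers of another class, Adamts5 was at 303 CPM, Mmp15 at 196 CPM, Adamts20 at 89.2 CPM and Adamts15 at 35.7 CPM, all highest in glial cells, but Mmp17 was then highest in neuronal cells, at 4.08 CPM. Adamts15 and Mmp17 rested on 4 and 2 glial UMIs. With 1 CPM added, the ratio of Adamts20 to the next class came under 2 with a minimum of 1000 genes per cell (1.64), with classes from clusters (1.85) and with 1 marker more (1.90), and that of Adamts15 with 1 marker more (1.84). Against the lineage, epithelial and neuronal classes, Adamts5 and Mmp15 were past 2-fold in each library and the other 3 were not. Timp3 was also highest there, at 426 CPM (17, 24 and 23 UMIs), 1.83-fold (1.29 to 2.58) above the endothelial level of 233 CPM.

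**Figure D5:**
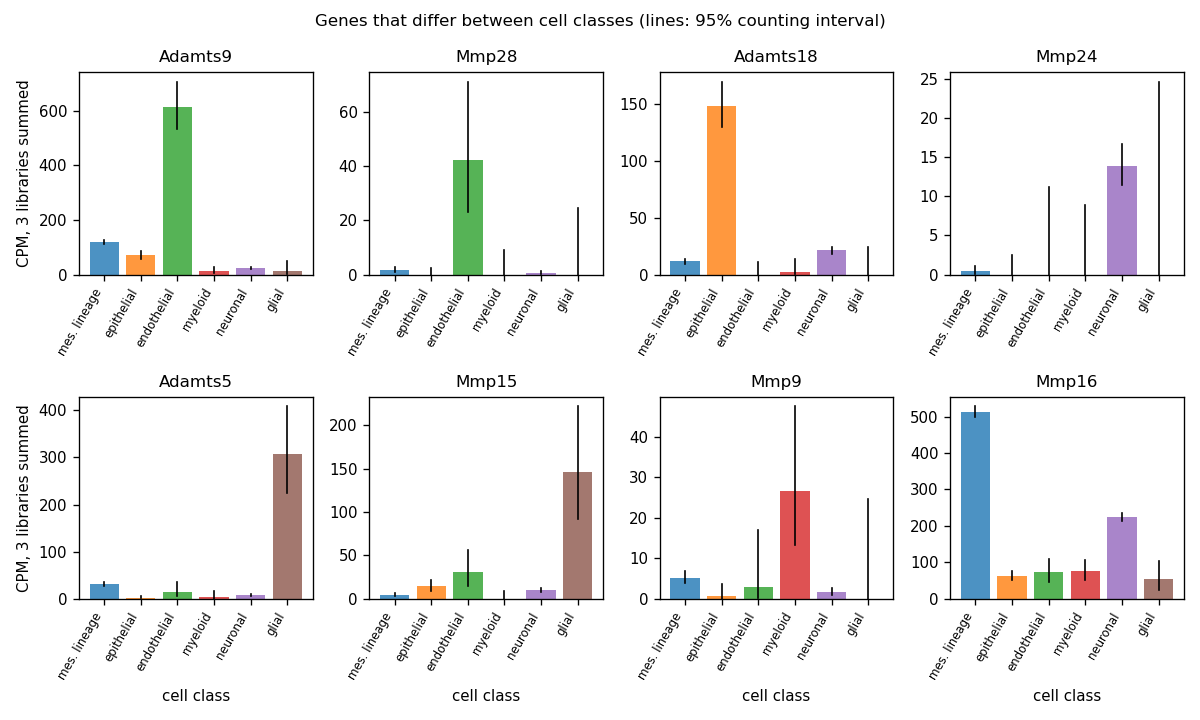
CPM of 8 genes in the mesenchymal lineage and 5 other cell classes, with the 3 libraries summed (bars, axes from 0 and scaled to each gene) and 95% counting intervals (lines). Adamts9 and Mmp28 are highest in endothelial cells, Adamts18 in epithelial, Mmp24 in neuronal, Adamts5 and Mmp15 in glial, Mmp9 in myeloid cells and Mmp16 in the lineage.

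In neuronal cells 1 member stood 2-fold above each other class (5.36% of all genes). This was Mmp24, a membrane-anchored MMP known from the nervous system, at 14.1, 14.8 and 11.4 CPM in the 3 libraries (98, 6 and 8 UMIs). Its summed level of 13.9 CPM was 33.0-fold (12.5 to 123) that of the lineage, where 4 UMIs were counted. The glial class had 0 UMIs of Mmp24, which at its depth allows up to 19.97 CPM, more than the neuronal level, so the order of these classes is not settled. Against the lineage and the epithelial class it was past 2-fold in each library. The neuronal class had the second-highest level of Mmp16 after the lineage, at 213, 313 and 286 CPM. Of 25 members tested between E15.5 and E13.5 in neuronal cells, 6 were 2-fold higher (16.8% of all genes) and 5 lower (12.0%), and counts this small are not read as a difference from all genes. Different clusters held these cells: 137 of the 187 neuronal cells at E15.5 were in 1 cluster led by Fstl5 and Gng13, which held 36 of 2037 at E13.5. Neuronal cells also held mesenchymal marker RNA at 337, 1071 and 662 CPM.

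Among myeloid cells, Mmp9 was 2-fold above each other class (5.71% of all genes), with 0, 5 and 6 UMIs and a summed level of 26.6 CPM against 5.14 CPM in the lineage. The 0 glial UMIs of Mmp9 allow the same 19.97 CPM, less than 2-fold under the myeloid level, and at E13.5 the myeloid class had no Mmp9 UMI. Of the 89 Mmp9 UMIs in kept cells, 37 were in the mesenchymal gate, 11 in the myeloid gate and 7 in the 3 cells gated as osteoclasts, the bone-resorbing cells known for Mmp9. The 15 cells with RNA of 2 or more osteoclast markers held 14 Mmp9 UMIs. Mmp8 was likewise concentrated in few cells: its 32 UMIs lay in 12 cells, and 27 of them in 7 cells with 2 or more neutrophil markers.

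Epithelial cells had 2 members 2-fold above each other class (4.28% of all genes), Adamts18 and Adamts16. Adamts18 was at 64.2, 196 and 161 CPM in epithelial cells (21, 71 and 132 UMIs), and its summed 148 CPM were 7.004-fold (5.71 to 8.60) the neuronal level. It was highest in epithelial cells in all 3 libraries. After thinning, 8.97%, 25.3% and 15.7% of epithelial cells had an Adamts18 UMI, against 0 of 93 myeloid cells, which allows a share of up to 3.23%. Adamts16 had 1, 8 and 14 UMIs there and 15.2 CPM in sum, 2.51-fold (0.621 to 22.0) the endothelial level and under the 19.97 CPM that 0 glial UMIs allow.

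Between E13.5 and E15.5 in epithelial cells, 7 of 14 members were 2-fold higher (16.4% of all genes) and 2 were lower (6.37%), with a median log2 ratio of 1.07 against 0.05 over all genes. In 4 of the 7 the interval lay above 1 (11.0% of all genes): Adamtsl1, Timp3, Mmp14 and Adamts18. Adamtsl1 was at 21.4, 463 and 350.2 CPM (7, 168 and 288 UMIs), a fold of 16.4 (7.84 to 41.0). Timp3 was at 12.2, 44.1 and 57.2 CPM and Mmp14 at 33.6, 91.0 and 106 CPM. Adamts17 was at 88.7, 55.15 and 35.3 CPM and Adamts6 at 85.6, 77.2 and 26.8 CPM, with folds of 0.398 and 0.312.

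The epithelial gate drew on different clusters at the 3 stages. A cluster led by Pomc and Oc90, genes of the pituitary and the inner ear, held 69.8% of its cells at E13.5 and 8.56% at E15.5. A keratin-rich cluster held 18.6% and 62.6%, and a cluster led by the nasal secretory gene Bpifa1 9.3% and 26.6%. Within the keratin-rich cluster Adamtsl1 gave 3, 125 and 240 UMIs (48.4, 1061 and 531 CPM) and Adamts18 gave 11, 59 and 130 UMIs (177, 501 and 287 CPM) at the 3 stages, on 16, 41 and 139 cells. In this cluster, as in the gate, both were lowest at E13.5 and highest at E14.5. In the nasal secretory cluster Adamts18 gave only 0, 7 and 0 UMIs, on 8, 31 and 59 cells, and Adamtsl1 gave 0, 18 and 47. Adamts17 gave 24 of its 29 E13.5 UMIs in the Pomc and Oc90 cluster, and within the keratin-rich cluster it was at 48.4, 102 and 50.9 CPM. With the class taken from the keratin-rich and nasal secretory clusters in place of the gate, the late-to-early log2 ratio was -0.24 for Adamts18 (1.31 in the gate), -0.16 for Adamts17 (-1.31 in the gate) and 4.00 for Adamtsl1 (3.97 in the gate), so the direction for Adamts18 turned with the choice of cells. Mesenchymal marker RNA in the epithelial gate summed to 177, 353 and 406 CPM, and its part in the difference was not tested.

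Of 29 related genes of pericellular proteolysis, 27 had at least 20 UMIs in the lineage, and 7 had a late-to-early ratio past 2 while 0 were lower, against the 14.1% and 5.28% of all genes. Spock2 and Spock3, matrix proteoglycans of the testican family, were at 3.97, 11.4 and 17.2 CPM and at 39.7, 82.5 and 107 CPM. Of 6 ADAM sheddases Adam12 and Adam15 passed, with Adam12 at 36.5, 88.3 and 172 CPM. Pcolce, the enhancer of the procollagen C-proteinase Bmp1, was at 26.99, 84.7 and 76.5 CPM, and Bmp1 itself at 53.2, 74.5 and 78.7 CPM did not pass. Fbn1 and Fbn2, the fibrillins of microfibrils, had log2 ratios of 1.00 and 1.32. None of the 5 activators and cofactors tested, such as Furin, which activates membrane-anchored MMPs, at 23.0, 28.2 and 26.0 CPM, was past 2-fold. Reck, a membrane-bound MMP inhibitor, was at 51.6, 69.9 and 71.1 CPM and did not pass.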

How the data were processed

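Per the file headers and the submitters' processing notes, the authors counted UMIs with Cell Ranger 6.1.2 on mm10 and deposited raw counts per gene and barcode. Whether introns or strand were used in counting is not given in the sources used here. The members and gene lists were chosen with earlier results of these data known. The gate's rule was set after marker levels had been seen.

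Barcodes under 500 genes (544, 304 and 473) or over 20% mitochondrial UMIs (0) were left out. The highest scrublet scores were left out as doublets at 0.8% per 1000 barcodes (109, 25 and 56 cells), because its automatic threshold called 0, 4 and 1. The gate needed 3 markers, and 2 for osteogenic cells among lineage cells. Classes under 50 cells were not compared. UMIs were summed per class and library. Intervals are exact Poisson for CPM, exact conditional binomial for folds and Clopper-Pearson for shares, all at 95%. A gene was tested in a class with at least 20 UMIs over the 3 libraries and called at a log2 ratio of 1 or more, or -1 or less, with 1 CPM added. A count of 0 was bounded at 3 counts. The 2-fold calls and the intervals of the folds were tested on simulated counts, and the other steps were not. Named genes are the members with at least 20 UMIs, and those of the related list past 2-fold. Furin, Bmp1 and Reck, and the members under 20 UMIs, were named after their values were seen. Clusters, used as an alternative, came from scanpy 1.11.5 without the members, with 2000 variable genes, 30 components and a Leiden resolution of 1. TMM factors came from edgeR.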

Additional observations from a re-analysis of the deposited data

Results flagged for a closer look

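Adamts17 differed in direction between the mesenchymal lineage and the epithelial gate. The late-to-early log2 ratio (E15.5 over E13.5) was 0.62 in the lineage (104, 384 and 637 UMIs in the order of the stages) and -1.31 in the epithelial gate (29, 20 and 29 UMIs), with both counting intervals on their own side of no change. The difference was not tested, since there is 1 library per stage. In the epithelial gate, 24 of the 29 UMIs at E13.5 came from the cluster led by Pomc and Oc90, and with classes taken from clusters the epithelial ratio was -0.16.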

How the results depend on the processing

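No paired analysis was possible because there is 1 library per stage and the labels give no replicate numbers. Of the 16 lineage members past 2-fold between E15.5 and E13.5, 16 kept their direction in 9 alternatives, but 9 came under 2-fold in at least 1 of these or with a pseudocount of 5 CPM. The alternatives use the same libraries. TMM scaling, with factors of 1.0116 at E13.5 and 0.9845 at E15.5, could not turn a 2-fold call. The lowest log2 ratios were 0.60 for Adamts14, 0.54 for Adamts16, 0.70 for Adamts4, 0.68 for Adamts8, 0.80 for Adamts5, 0.82 for Mmp9, 0.93 for Mmp16 and 0.99 for Adamts15, and Adamts7 came to -0.38. Of the values for single genes, 76 left the counting interval of the reported value, 1 reversed in direction and 469 did neither. Of the counts and medians, 123 stayed within 1.5 times the reported one and 39 did not, and the cause was not tested. The latter follow, with the share over all genes under the same setting in brackets.

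For members 2-fold higher in the lineage at E15.5 than at E13.5 (15), a minimum of 100 UMIs gave 8 of 22 (10.2%), with a median log2 ratio of 0.58 in place of 0.93. All cells of the libraries gave 23 of 35 (20.9%), with a median of 1.51. For those lower (1), classes from clusters (4.81%), the mesenchymal gate alone (5.57%) and all cells (7.97%) gave 2, and a pseudocount of 5 CPM (2.73%), the 100 UMIs (3.63%) and the fixed cluster mix (8.23%) gave 0. At E14.5 against E13.5 (13 higher, 0 lower), clusters gave 8 higher (10.4%), a pseudocount of 5 gave 6 (5.6%), the 100 UMIs gave 7 (8.16%), and all cells gave 21 higher (19.0%) and 1 lower (7.31%) with a median of 1.30. At E15.5 against E14.5 (1 higher, 1 lower, median 0.12), higher counts were 0 with a pseudocount of 5 (0.469%) or the 100 UMIs (0.718%), 2 with no filter (1.9%) or the mesenchymal gate alone (2.37%), and 4 with the fixed mix (8.11%). Lower counts were 3 without cells with 3 markers of another class (1.9%), 2 in the mesenchymal gate alone (1.67%), and 0 with a pseudocount of 5 (0.842%), the 100 UMIs (0.926%) or all cells (1.28%). The median was 0.06 with clusters, 0.02 without cells with 3 markers of another class and 0.043 with all cells.

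In the epithelial class (7 higher, 2 lower, median 1.07), clusters gave 11 higher of 18 (23.8%) and 0 lower (7.52%), and leaving out cells with 3 markers of another class gave 4 higher (17.1%) and 1 lower (7.27%) of 10, with a median of 0.70. The log2 ratio of Adamts18 reversed to -0.24 with clusters. Of members 2-fold above each other class, clusters gave 2 in the myeloid class (5.24%) in place of 1, and a gate with 1 marker more gave 3 in the glial class (4.01%) in place of 5. With classes at 0 UMIs set to 3 counts, 1 was left in the epithelial class (1.62%), and 0 in the myeloid (4.21%) and neuronal classes (2.56%). The osteogenic gate could not be compared with classes from clusters, since no cluster took that name. Without the filter on low counts, the median over all genes moved to 0.136 (from 0.04), and with all cells to 0.161. The fixed mix, the removal of cells with 3 markers of another class or with pituitary RNA, and the 3 counts, were chosen after seeing the data.

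Depth limits the lineage, endothelial, glial and myeloid classes most at E13.5, where 1 UMI is 0.794 CPM in the lineage and a count of 0 allows 2.38 CPM. Endothelial, glial and myeloid cells were only 8, 10 and 19 there, so a count of 0 allows 229, 107 and 67.0 CPM. In neuronal cells E14.5 and E15.5 are the shallow stages, where it allows 7.38 and 4.26 CPM.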
